A study of Homo sapiens with 9 samples.

Results

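Histone proteins package DNA, and human cells carry 2 kinds of histone genes. The clustered, replication-dependent genes lie side by side in a few chromosomal clusters, are transcribed together with DNA synthesis, and mostly give short mRNAs without introns that end in a stem-loop instead of a poly(A) tail. The stem-loop is bound by SLBP, which guides 3′ processing, export and translation of these mRNAs. The variant genes lie singly, usually contain introns, give polyadenylated mRNAs and supply histones such as H2A.Z, H2A.X, macroH2A and H3.3 outside of DNA synthesis. Some clustered genes also give polyadenylated transcripts, which have been seen mostly in cells that are not replicating.

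The genes described here are the protein-coding genes whose names begin with HIST1H to HIST4H, H1F, H2AF or H3F3 in the count table. There were 87 of them among 58735 genes in all, with 71 clustered genes, called HIST genes below, and 16 variant genes. RNA was sequenced from MIA PaCa-2, an established pancreatic cancer cell line, labelled WT in every group, after 24 h with 0.1% DMSO, with 1 μM SCH772984, an inhibitor of the kinases ERK1/2, or with 1 μM compound 1, an inhibitor of the kinases TBK1 and IKKε. Each group had 3 libraries. The labels do not say whether they came from separate cultures, so p-values measure the spread between these samples, which may be technical.

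Library totals lay between 9464432 and 13887859 counts, highest with SCH772984, and 1 CPM (counts divided by the library total times edgeR's TMM factor, so that libraries can be compared) stood for 8.99 to 14.8 counts. Of the epithelial markers, KRT8 had a mean of 765 CPM with SCH772984 against 2510 CPM with DMSO, and KRT18 one of 165 against 887 CPM, while KRT19 had 270 against 254 CPM. CDH1 had at most 5 counts in a library and EPCAM 0, and the mesenchymal marker VIM had means of 2092 to 2615 CPM. The leukocyte marker PTPRC was at 0 and the endothelial marker PECAM1 had at most 1 count. The fibroblast marker COL1A1 had 1 to 4 counts without SCH772984 and 28 to 48 with it, while COL1A2 had a mean of 1028 CPM with SCH772984 against 486 CPM with DMSO and 499 CPM with compound 1, and the part of these markers in the results was not tested. In a culture measured in bulk, fewer cells of a kind and less RNA per cell cannot be told apart.

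The stem-loop itself was looked for in the annotated transcripts, since it defines the replication-dependent class. A 16-base hairpin of this form was found in 33 of the 87 genes and in 98 of 19922 protein-coding genes (0.492%). It was present in 32 HIST genes and in 1 variant gene, H2AFX, which is known to give both a stem-loop mRNA and a polyadenylated one. A further 33 HIST gene models hold coding sequence alone, so a stem-loop could not be seen in them, and 6 held none. The forms differed little between genes. They are given as DNA of the transcript strand with the hairpin in capitals and 5 flanking bases on each side, for 6 genes to which the results return.
HIST1H2AC: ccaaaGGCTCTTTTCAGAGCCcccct
HIST2H2BE: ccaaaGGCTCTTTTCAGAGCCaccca
HIST1H2BD: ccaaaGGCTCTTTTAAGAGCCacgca
HIST1H3E: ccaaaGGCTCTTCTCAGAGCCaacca
HIST1H4H: ccaaaGGCCCTTTTCAGGGCCgccca
H2AFX: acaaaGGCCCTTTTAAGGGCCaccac

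In 24 HIST genes the annotated model ran on for at least 100 exonic bases past the stem-loop. The model of HIST2H2BE continued for 1729 bases, that of HIST1H3E for 1862 and that of HIST1H2AC for 1128, whereas that of HIST1H2AI ended 39 bases after it. H2AFX continued for 1044 bases.

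HIST genes were far more thinly covered than variant genes. How mRNA was selected is not given in the sources used here. Whether stem-loop mRNAs without a poly(A) tail were captured in full is therefore unknown. The HIST counts, sums and ratios below need not measure the whole of replication-dependent histone mRNA. The 71 HIST genes together held 0.0214% to 0.0216% of all counts in the DMSO libraries (2205, 2049 and 2040 counts). The 16 variant genes held 0.239% to 0.243% (24763, 23254 and 22663 counts). The median gene had a mean of 5.11 counts per library among HIST genes and 895 among variant genes. Of the HIST genes, 12 had 0 counts in all 9 libraries and 8 more had at most 3 in every library, while 15 had at least 10 in every library. Of the variant genes, 4 had 0 counts throughout (H1FOO, H1FNT, H2AFB2 and H2AFB3, all known from the germ line), H2AFB1 had at most 2 and H3F3C at most 4. With 0 counts, up to 3 counts per library remain possible, which is 0.202 to 0.334 CPM.

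Near-identical copies and overlapping genes limit what a count of 0 says here. Of the 12 HIST genes at 0, 6 shared over 80% of their 100-base windows with another gene or lay for over 80% of their length inside one. HIST1H2AD and HIST1H3D, for example, lie within AL031777.3 on the same strand, HIST1H2AM lies mostly within HIST1H3J, and HIST2H3C is a copy of HIST2H3A. In all, 20 HIST genes shared over 10% of their windows with another gene. How reads with several matches were counted, and whether strand was used, is not given in the sources used here.

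The first question was how the 2 classes stood to each other in each library. Summed HIST expression was 228, 228 and 225 CPM with DMSO, 238, 206 and 208 CPM with compound 1, and 598, 534 and 555 CPM with SCH772984. All SCH772984 libraries thus lay above the other 6, and their mean was 2.48 times that of DMSO. Summed variant expression was 2555, 2588 and 2502 CPM with DMSO, 2659, 2473 and 2569 CPM with compound 1, and 1549, 1477 and 1552 CPM with SCH772984. The SCH772984 libraries lay below all others, at 0.599 times the DMSO mean.

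Within each library, HIST counts equalled 8.90%, 8.81% and 9.0% of the variant counts with DMSO, and 8.96%, 8.32% and 8.10% with compound 1. With SCH772984 they equalled 38.6%, 36.2% and 35.7%. On the log2 scale the DMSO libraries had a ratio of -3.49 ± 0.015 (SD, n = 3), the compound 1 libraries one of -3.56 ± 0.076 and the SCH772984 libraries one of -1.44 ± 0.060. The difference of 2.05 between SCH772984 and DMSO was many times the spread within a group. It does not depend on the scaling of the libraries, since both sums come from the same library.

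**Figure D1:**
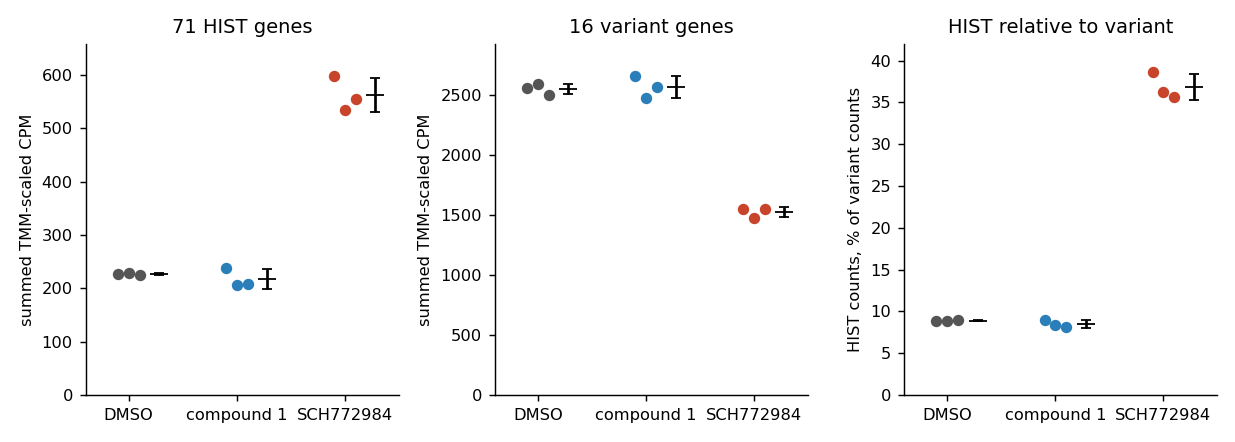
Summed expression of the HIST genes and of the variant genes in CPM, and HIST counts as a percentage of variant counts, for each of the 9 libraries (points) with the mean and SD of each group (black). With SCH772984 the HIST sum was 534 to 598 CPM against 225 to 228 with DMSO, and the variant sum was 1477 to 1552 CPM against 2502 to 2588.

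Each of the 5 clustered families had a higher sum with SCH772984. H3 genes had 4.26 times their DMSO level, H1 genes 2.94 times, H2A genes 2.57 times, H2B genes 2.18 times and H4 genes 1.7 times. The H1 value is that of HIST1H1C, without which the other 5 H1 genes went from 3.31 ± 1.63 CPM (SD, n = 3) to 1.71 ± 0.22 CPM. Without their gene of largest difference, the other families kept 3.04 (H3), 1.98 (H2A), 1.8 (H2B) and 1.4 (H4) times their DMSO sum. A few genes carried most of these sums. The 5 highest HIST genes held 69.4% of the HIST sum with DMSO (HIST1H2BK, HIST1H1C, HIST3H2A, HIST1H2AC and HIST1H4I) and the 5 highest held 66.6% with SCH772984, where HIST1H2BD stood in place of HIST1H4I. These shares are in counts, and longer models collect more reads.

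Gene by gene, 30 HIST genes and 10 variant genes had enough counts to be tested in the comparison of SCH772984 with DMSO (edgeR's quasi-likelihood test, adjusted p under 0.05). Of the HIST genes, 23 were higher, 2 were lower and 5 did not pass. The share over all 13834 genes tested was 37.2% higher and 35.5% lower. On the log2 scale the median change was 1.63 over the tested HIST genes, against 0.03 over all genes tested. Of the variant genes, 2 were higher, 6 were lower and 2 did not pass, with a median of -0.36. In 22 of the 30 HIST genes every SCH772984 library lay above every DMSO library, which held for 36.8% of all genes tested.

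The filter on low counts lets a gene in through the group where it is high, so the count of 23 is not a count over all HIST genes. Among the 22 HIST genes that passed the same filter when compound 1 was compared with DMSO, without any SCH772984 library, 21 were tested here, and 16 of these were higher and 2 lower. The other 9 tested genes had few counts with DMSO, and 7 of them were higher (HIST1H3E, HIST1H2BF, HIST1H2BE, HIST1H3B, HIST2H2BF, HIST1H4E and HIST1H3J). Among the 22 tested HIST genes that shared at most 10% of their windows with another gene, 18 were higher and 1 was lower.

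**Figure D2:**
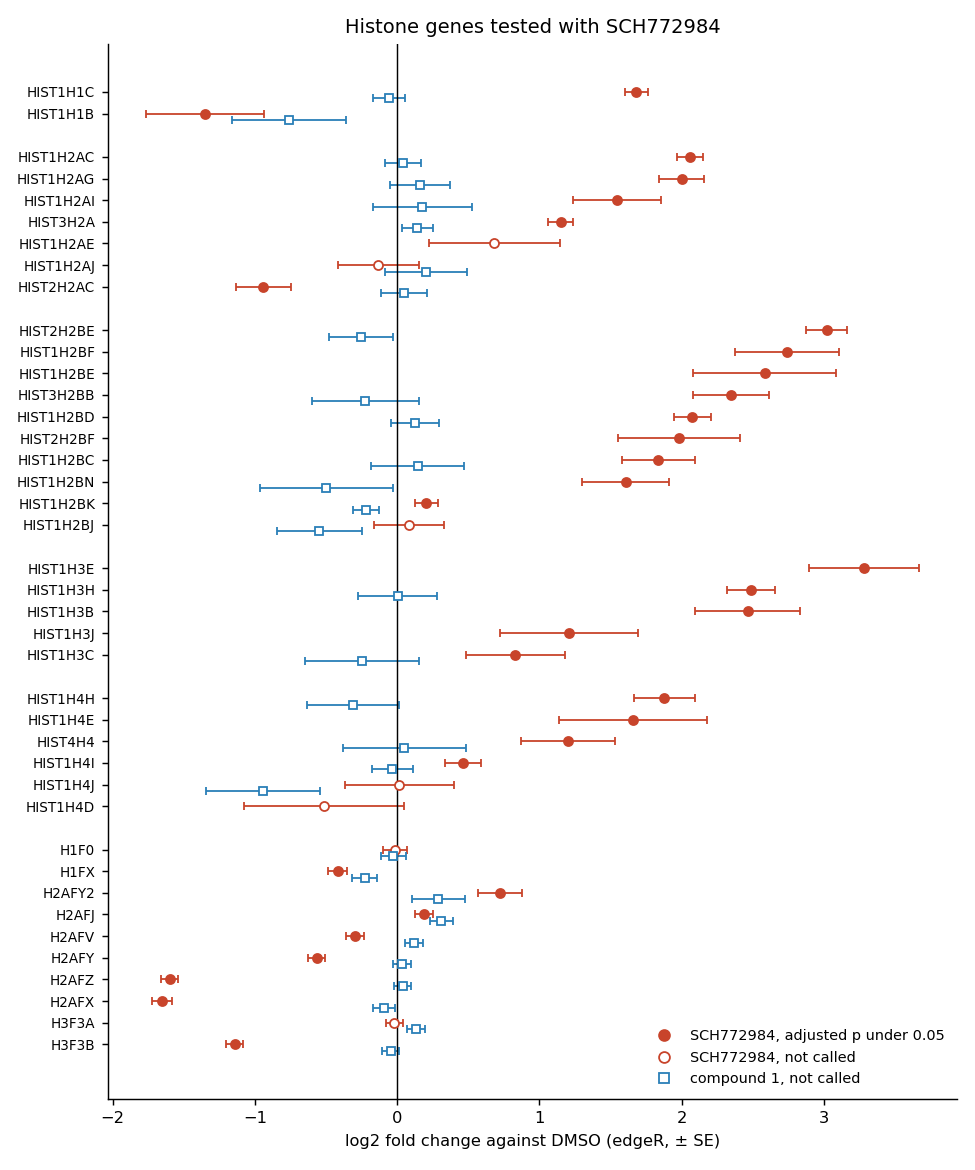
Log2 fold change against DMSO (± SE, edgeR) of the 40 histone genes tested with SCH772984 (circles, filled where the adjusted p was under 0.05) and of those tested with compound 1 (open squares), ordered by family with the variant genes at the bottom. Most HIST genes lay to the right of 0 with SCH772984, up to 3.28 for HIST1H3E, H2AFX and H2AFZ lay near -1.6, and no compound 1 value passed the threshold.

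H2B genes, which encode one partner of the H2A-H2B dimer, had the most tested genes and gave the most calls. Of 10 tested, 9 were higher and none was lower, against 37.2% and 35.5% of all genes. Among those that passed the filter without SCH772984, 6 of 7 were higher. HIST2H2BE, one of the clustered genes known for polyadenylated transcripts, was at 5.37, 4.34 and 4.08 CPM with DMSO, at 4.05, 4.20 and 3.22 CPM with compound 1 and at 40.9, 32.4 and 37.5 CPM with SCH772984. The groups with and without SCH772984 were far apart, and those with DMSO and compound 1 overlapped. The rise was 8.11-fold (log2 3.02 ± 0.14 SE, edgeR adjusted p = 2.9e-23).

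HIST1H2BD was at 7.84, 10.4 and 8.83 CPM with DMSO, at 10.9, 9.98 and 8.31 CPM with compound 1 and at 41.4, 39.0 and 31.7 CPM with SCH772984, a log2 fold change of 2.08 ± 0.13. HIST1H2BF rose from 6, 3 and 8 counts to 52, 47 and 62 counts (log2 2.74 ± 0.37), and HIST1H2BE from 4, 1 and 4 to 19, 31 and 27 counts (log2 2.58 ± 0.50). Both rises rest on single-digit counts in the DMSO libraries. HIST1H2BE shared 25.6% of its windows with other genes and was overlapped on the opposite strand.

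HIST1H2BK was the highest HIST gene with DMSO and moved little. It was at 48.9, 48.9 and 50.3 CPM with DMSO, at 45.6, 38.2 and 42.1 CPM with compound 1 and at 59.9, 51.1 and 57.5 CPM with SCH772984. Its log2 fold change of 0.21 ± 0.08 passed the test (edgeR adjusted p = 0.0216), but no longer did without any one of the DMSO libraries (0.0576 to 0.1) or without SCH772984 replicate 1 (0.128). HIST1H2BK shares 28.4% of its windows with H2BFS. HIST1H2BJ, at 2.89 to 5.52 CPM with DMSO and 3.19 to 4.99 CPM with SCH772984, was the one tested H2B gene that did not pass.

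Of 7 tested H2A genes, 4 were higher and 1 was lower, against 37.2% and 35.5% of all genes. HIST1H2AC was at 23.2, 22.4 and 20.0 CPM with DMSO, at 23.2, 18.7 and 24.9 CPM with compound 1 and at 101, 86.8 and 81.8 CPM with SCH772984. This 4.17-fold rise (log2 2.06 ± 0.09, edgeR adjusted p = 7.63e-24) made it the second-highest HIST gene in the SCH772984 libraries. HIST3H2A, at 30.3, 36.2 and 39.6 CPM with DMSO and 78.7, 70.7 and 82.0 CPM with SCH772984, rose by 1.15 ± 0.09 on the log2 scale. HIST1H2AG rose by 2.00 ± 0.16 and HIST1H2AI by 1.54 ± 0.31.

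HIST2H2AC went the other way. It was at 8.87, 7.90 and 8.61 CPM with DMSO, at 9.80, 7.98 and 8.20 CPM with compound 1 and at 3.56, 4.41 and 4.99 CPM with SCH772984. The SCH772984 libraries lay below all others, those with DMSO and compound 1 overlapped, and the log2 fold change against DMSO was -0.94 ± 0.20 (edgeR adjusted p = 3.67e-05). HIST2H2AC shares 17.2% of its windows with HIST2H2AA3 and HIST2H2AA4. HIST1H2AL, which failed the filter here, had 17, 7 and 13 counts with DMSO and 4, 2 and 6 with SCH772984.

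All 5 tested H3 genes were higher, each from a low level, against 37.2% of all genes. However, 3 of the 5 (HIST1H3E, HIST1H3B and HIST1H3J) passed the filter through their SCH772984 counts. HIST1H3H, the highest of the 5, was at 4.95, 4.79 and 2.98 CPM with DMSO, at 5.86, 3.15 and 3.63 CPM with compound 1 and at 26.7, 21.3 and 22.7 CPM with SCH772984, a rise of 5.61-fold (log2 2.49 ± 0.17, edgeR adjusted p = 8.89e-18). HIST1H3E had 2, 8 and 3 counts with DMSO and 52, 59 and 69 with SCH772984, which gave the largest log2 fold change of any tested histone gene, 3.28 ± 0.39. HIST1H3B had 9, 3 and 7 counts with DMSO and 46, 44 and 58 with SCH772984 (log2 2.46 ± 0.37). HIST1H3C, at 0.929 to 2.34 CPM with DMSO and 2.29 to 3.35 CPM with SCH772984, overlapped between the groups, and its call (log2 0.83 ± 0.35, edgeR adjusted p = 0.0292) was lost in DESeq2 (adjusted p = 0.0748) and without some single libraries. HIST1H3I, next among H3 genes by level with DMSO, had 9, 8 and 3 counts there and 2, 2 and 1 with SCH772984, too few to be tested with the filter and called lower without it.

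Of 6 tested H4 genes, 4 were higher and none was lower, against 37.2% and 35.5% of all genes, and of the 4 that passed the filter without SCH772984, 3 were higher. HIST1H4I, the highest, was at 15.3, 16.5 and 13.0 CPM with DMSO and at 21.8, 19.8 and 19.5 CPM with SCH772984 (log2 0.47 ± 0.13, edgeR adjusted p = 0.0012). HIST1H4H was at 1.96, 3.90 and 3.97 CPM with DMSO and at 14.2, 11.9 and 9.44 CPM with SCH772984 (log2 1.88 ± 0.22). HIST1H4J overlapped between the groups, at 1.24 to 1.77 CPM with DMSO and 0.980 to 1.96 CPM with SCH772984. It shares 77.7% of its windows with HIST1H4K.

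Among the linker histones, which bind DNA between nucleosomes, 2 of the 6 clustered genes were tested and they moved apart. HIST1H1C, encoding H1.2, was at 39.7, 36.2 and 32.2 CPM with DMSO, at 39.6, 30.8 and 32.4 CPM with compound 1 and at 115, 108 and 119 CPM with SCH772984. It rose 3.21-fold (log2 1.68 ± 0.08, edgeR adjusted p = 5.6e-23) and was the highest HIST gene in the SCH772984 libraries. HIST1H1B, encoding H1.5, had 25, 13 and 14 counts with DMSO, 12, 6 and 13 with compound 1 and 8, 11 and 9 with SCH772984. Its fall (log2 -1.35 ± 0.41, edgeR adjusted p = 0.0033) was not called without DMSO replicate 1 (log2 -1.05, adjusted p = 0.0623). HIST1H1E had 16, 5 and 5 counts with DMSO and 3, 6 and 11 with SCH772984 and was not tested.

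**Figure D3:**
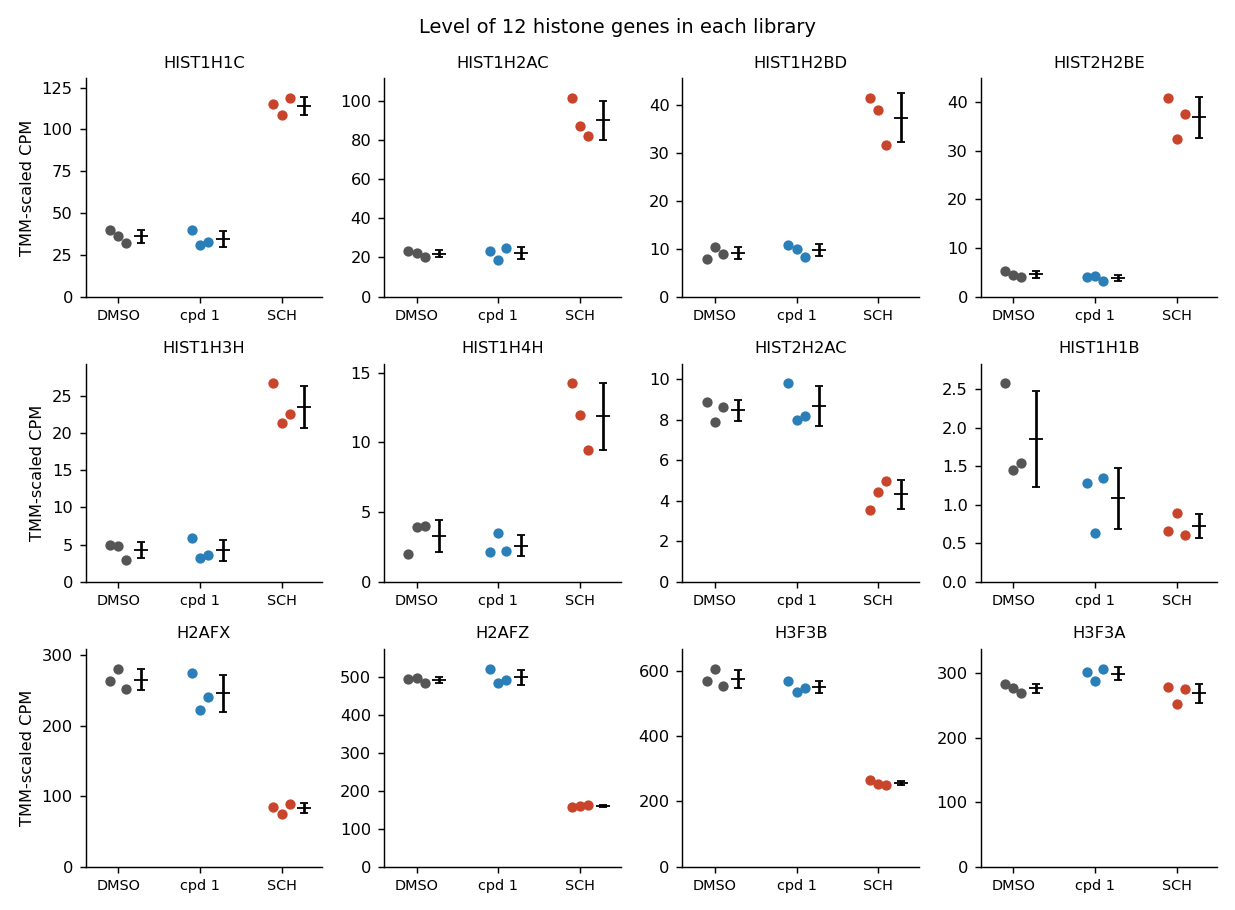
CPM in each library (points) with the group mean and SD (black) for 8 HIST genes and 4 variant genes, with compound 1 written as cpd 1 and SCH772984 as SCH. HIST1H1C to HIST1H4H rose with SCH772984 without overlap, HIST2H2AC and HIST1H1B fell, H2AFX, H2AFZ and H3F3B fell to between 75.2 and 264 CPM, and H3F3A overlapped between DMSO and SCH772984.

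The tested variant genes other than H2AFY2 and H1F0 had at least 920 counts in every library. Of the H2A variants, H2AFZ, encoding H2A.Z.1, which marks promoters, was at 495, 498 and 484 CPM with DMSO, at 523, 484 and 492 CPM with compound 1 and at 157, 161 and 162 CPM with SCH772984. It fell by 1.60 ± 0.06 on the log2 scale, 3.03-fold (edgeR adjusted p = 1.17e-26). H2AFV, encoding the related H2A.Z.2, was at 257, 249 and 252 CPM with DMSO and at 206, 202 and 200 CPM with SCH772984, and fell by 0.30 ± 0.06. That smaller fall was not called with scaling by library size alone (adjusted p = 0.063).

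H2AFX, encoding the H2A.X that is phosphorylated at DNA breaks and the one variant gene with a stem-loop, was at 263, 281 and 252 CPM with DMSO, at 275, 223 and 241 CPM with compound 1 and at 85.0, 75.2 and 88.9 CPM with SCH772984. It fell by 1.65 ± 0.07 on the log2 scale, 3.15-fold (edgeR adjusted p = 2.09e-25).

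The macroH2A genes moved in opposite directions. H2AFY, encoding macroH2A1, was at 347, 339 and 360 CPM with DMSO and at 233, 232 and 232 CPM with SCH772984 (log2 -0.56 ± 0.06), and is overlapped over 30.9% of its bases by genes on the opposite strand. H2AFY2, encoding macroH2A2, was at 8.56, 7.68 and 11.3 CPM with DMSO, at 13.3, 10.9 and 9.03 CPM with compound 1 and at 14.1, 16.3 and 14.2 CPM with SCH772984 (log2 0.72 ± 0.15, edgeR adjusted p = 5.86e-05). H2AFJ, encoding the H2A variant H2A.J, was at 142, 138 and 132 CPM with DMSO and at 154, 145 and 162 CPM with SCH772984. Its log2 fold change of 0.19 ± 0.07 (edgeR adjusted p = 0.00974) was the smallest called and was lost without DMSO replicate 2 (adjusted p = 0.0575) or 3 (adjusted p = 0.107).

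The genes for the H3.3 protein differed from each other. H3F3A and H3F3B encode the same protein, which is deposited outside of replication. H3F3B was at 567, 607 and 552 CPM with DMSO, at 570, 535 and 548 CPM with compound 1 and at 264, 255 and 251 CPM with SCH772984, a fall of 1.14 ± 0.06 on the log2 scale (edgeR adjusted p = 2.36e-21). H3F3A was at 284, 277 and 270 CPM with DMSO and at 279, 252 and 276 CPM with SCH772984 (log2 -0.02 ± 0.06). Per kb of model, H3F3B was at 93.8 ± 4.61 CPM (SD, n = 3) and H3F3A at 88.0 ± 2.23 CPM with DMSO, and at 41.9 ± 1.11 and 85.6 ± 4.78 CPM with SCH772984. With scaling by library size alone H3F3A was called higher (log2 0.16, adjusted p = 0.0164).

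Of the linker histone variants, H1FX, encoding H1.10, was at 140, 138 and 136 CPM with DMSO and at 106, 93.0 and 107 CPM with SCH772984 (log2 -0.42 ± 0.07). H1FX is overlapped over 22.9% of its bases by H1FX-AS1 on the opposite strand. H1F0, encoding the H1.0 linked to differentiated cells, was at 51.7, 52.3 and 53.9 CPM with DMSO and at 49.8, 46.9 and 57.2 CPM with SCH772984, and did not pass (log2 -0.01 ± 0.08).

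To compare levels between genes, CPM were divided by the length of the annotated model in kilobases. With DMSO, H2AFZ was highest at 214 ± 3.22 CPM per kb (SD, n = 3), then H2AFX at 164 ± 9.28 and, as the first HIST gene, HIST1H2BK at 130 ± 2.21. With SCH772984, HIST1H1C was highest at 178 ± 8.17 CPM per kb, then HIST1H2BK at 147 ± 11.98, HIST3H2A at 86.2 ± 6.49 and H3F3A at 85.6 ± 4.78. The last 2 did not differ beyond their spread. H2AFZ stood at 69.5 ± 1.078 CPM per kb and H2AFX at 51.4 ± 4.39. Models that hold coding sequence alone, such as those of HIST1H1C and HIST1H2BK, are short, which raises this measure.

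The HIST genes were then set out by their annotated models, a division made after their values had been seen and therefore given without a test. All 17 tested genes whose models continue past the stem-loop were higher with SCH772984, by 0.47 to 3.28 on the log2 scale (median 2.0), where 37.2% of all genes were higher. Of these, 5 passed the filter through their SCH772984 counts, and the other 12, testable without SCH772984, were all higher (median 1.94). Of 3 tested genes whose models end at the stem-loop, 1 was higher, HIST1H2AI, and the median was 0.68. Of 8 tested genes with coding sequence alone, 4 were higher (HIST1H1C, HIST1H2BK, HIST1H3C and HIST1H3B) and 2 were lower (HIST1H1B and HIST2H2AC), with a median of 0.04. Among those testable without SCH772984, 3 of 6 were higher and 2 lower. As sums, genes with continuing models went from 108 ± 4.25 CPM (SD, n = 3) to 357 ± 28.4 CPM, and genes with coding sequence alone from 107 ± 3.96 CPM to 191 ± 8.70 CPM. Without HIST1H1C the latter went from 71.3 ± 1.504 to 76.4 ± 3.59 CPM, and without HIST1H2AC the former from 86.4 ± 4.94 to 267 ± 19.0 CPM. The table gives 1 count per gene, so where reads fell relative to the stem-loop was not measured.

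**Figure D4:**
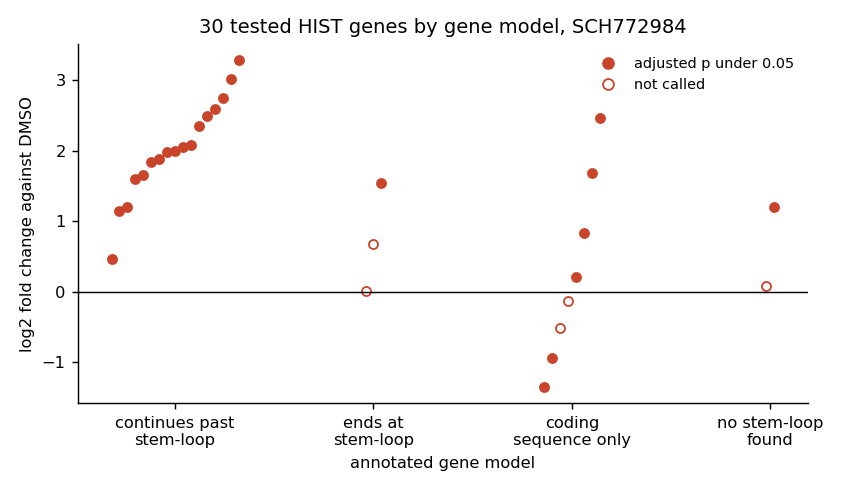
Log2 fold change of the 30 tested HIST genes with SCH772984 against DMSO, placed by the end of the annotated gene model, with filled points where the edgeR adjusted p was under 0.05. All 17 genes with models that continue past the stem-loop lay above 0 and were called, while genes with coding sequence alone lay between -1.35 and 2.46.

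The 6 HIST genes listed for known polyadenylated transcripts were HIST1H1C, HIST1H2AC, HIST1H2BC, HIST1H2BD, HIST1H2BK and HIST2H2BE. All 6 were higher with SCH772984, by 0.21 to 3.02 on the log2 scale (median 1.95), where 37.2% of all genes were higher and 35.5% lower. HIST1H2BC, not described above, had 16, 14 and 18 counts with DMSO and 80, 75 and 84 with SCH772984 (log2 1.84 ± 0.26). Of the 24 tested HIST genes outside that list, 17 were higher and 2 were lower, with a median of 1.38. These 24 include the HIST genes that passed the filter through their SCH772984 counts, while all 6 listed genes also passed it without SCH772984. The 2 sets are therefore not alike in how they were admitted. The study's methods point to an mRNA sequencing service, and how mRNA was selected is not given in the sources used here. RN7SL2, an RNA without a poly(A) tail, had 82 to 194 counts in every library with no separation of the groups. RN7SL1, RN7SK, RMRP and RPPH1 were at 0.

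By position, 34 HIST genes lie on chromosome 6 between 25726132 and 26285638 and 21 between 27125897 and 27893843 (GRCh38). In the first stretch 11 of 13 tested genes were higher and none was lower, against 37.2% and 35.5% of all genes, and in the second 7 of 11 were higher and 1 was lower. Among genes that passed the filter without SCH772984, all 6 in the first stretch were higher, and in the second 6 of 10 were higher and 1 was lower. The difference between the stretches was not tested. On chromosome 1, 12 HIST2 genes gave 3 tested genes, 2 higher and 1 lower, and both tested HIST3 genes were higher. HIST4H4, on chromosome 12, rose by 1.2 ± 0.33.

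Clustered H2A and H2B genes often lie head to head and share the stretch between their starts. The table holds 12 such pairs with starts within 1000 bases of each other, 11 of an H2A and an H2B gene, and both members were tested in 4. In 2 pairs both members were higher, HIST1H2BC with HIST1H2AC (log2 1.84 and 2.06) and HIST3H2A with HIST3H2BB (1.15 and 2.35). In the pair of HIST1H2BJ and HIST1H2AG the second was higher and the first did not pass (0.09 and 2.00). In the pair of HIST2H2BE and HIST2H2AC the members moved in opposite directions (3.02 and -0.94). The annotated models differ too. All members of the 2 concordant pairs have models that continue past the stem-loop. The model of HIST2H2AC holds coding sequence alone, and no stem-loop was found in that of HIST1H2BJ. The part of the models in these differences was not tested.

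The shared stretches of a concordant and a discordant pair are printed below from the RefSeq promoter table (GRCh38.p14), plus strand, between the RefSeq starts of the H2B gene on the left and the H2A gene on the right. Capitals mark 3 short motifs on either strand: CCAAT, bound by NF-Y, the TATA box TATAAA, and the octamer ATTTGCAT, bound by OCT1 and known from H2B promoters. No motif contains another. In the first stretch the count table's annotation starts HIST1H2AC 27 bases earlier than RefSeq does.
HIST1H2BC-HIST1H2AC, chr6:26123927-26124171: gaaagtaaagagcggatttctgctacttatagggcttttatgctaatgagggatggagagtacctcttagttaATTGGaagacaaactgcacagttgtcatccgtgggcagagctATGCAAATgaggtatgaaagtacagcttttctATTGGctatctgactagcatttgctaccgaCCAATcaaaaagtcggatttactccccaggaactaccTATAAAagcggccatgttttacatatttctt
HIST2H2BE-HIST2H2AC, chr1:149886683-149886917: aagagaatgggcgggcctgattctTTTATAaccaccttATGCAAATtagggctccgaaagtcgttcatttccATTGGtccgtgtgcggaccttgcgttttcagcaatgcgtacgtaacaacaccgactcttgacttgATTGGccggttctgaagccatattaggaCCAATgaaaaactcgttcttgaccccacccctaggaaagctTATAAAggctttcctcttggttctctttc

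Both stretches hold 3 CCAAT motifs and 1 octamer, the first holds 1 TATA box and the second 2. The same letters were counted in 300-base RefSeq promoters. CCAAT was in 84.8% of 66 HIST promoters and 78.6% of 14 variant promoters, against 34.6% of all 35116. It was in every H1, H2A, H2B and H3 promoter matched but in 23.1% of 13 H4 promoters. TATAAA was in 66.7% of HIST and 28.6% of variant promoters, against 11.5% of all. The octamer was in 77.8% of 18 H2B and 68.8% of 16 H2A promoters, which share stretches, in none of 13 H4 promoters, and in 1.77% of all. These are matches of letters, and binding was not measured.

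Compound 1 was compared with DMSO next. None of the 22 tested HIST genes and none of the 10 tested variant genes passed the adjusted threshold in edgeR, where 0.49% of 12849 tested genes were higher and 0.374% lower. At an unadjusted p under 0.05, HIST1H2BK and HIST1H4J were lower among HIST genes, and among variant genes H2AFJ was higher and H1FX lower. Of all genes tested, 7.35% were higher and 7.69% lower at that level. DESeq2 called 0 HIST genes and 1 variant gene, H2AFJ. The median log2 fold change was -0.02 for HIST genes and 0.04 for variant genes.

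H2AFJ was the variant gene nearest to a call. It was at 142, 138 and 132 CPM with DMSO and at 188, 158 and 157 CPM with compound 1, without overlap (log2 0.31 ± 0.08, edgeR adjusted p = 0.0825). H1FX was at 134, 105 and 111 CPM with compound 1, all below the DMSO libraries (log2 -0.23 ± 0.09, edgeR adjusted p = 0.225). These results turned on compound 1 replicate 1. Without it, edgeR called HIST1H2BK, H2AFX and H1FX lower and H2AFJ higher, with adjusted p = 0.0164 for H2AFJ and 0.000341 for H1FX, and over all genes 453 were called higher and 798 lower, where 63 and 48 were called with it.

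SCH772984 and compound 1 were given at the same dose and time and were also compared directly. Of 31 tested HIST genes, 23 were higher with SCH772984 and 2 were lower, and of 10 variant genes 1 was higher and 5 were lower, while 33.7% of 13863 tested genes were higher and 32.6% were lower. Among the 22 HIST genes that passed the filter without SCH772984, 18 were higher and 2 were lower. This comparison shares its SCH772984 libraries with the one against DMSO. The largest differences were HIST1H2BF (log2 3.83 ± 0.43), HIST2H2BE (3.28 ± 0.16), HIST1H3B (3.14 ± 0.39), HIST1H3E (2.78 ± 0.34) and HIST3H2BB (2.58 ± 0.28). Of these, HIST1H2BF, HIST1H3B and HIST1H3E had at most 9 counts in any compound 1 library and passed the filter through their SCH772984 counts. HIST2H2AC (-0.98 ± 0.20) and HIST1H2AL (-2.18 ± 0.49) were lower. HIST1H2AL had 16, 13 and 12 counts with compound 1 and 4, 2 and 6 with SCH772984, and HIST1H1B was not called (log2 -0.58, edgeR adjusted p = 0.26). Among variant genes, H2AFZ (-1.63), H2AFX (-1.55), H3F3B (-1.09), H2AFY (-0.59) and H2AFV (-0.40) were lower. H2AFY2 was higher (0.44, edgeR adjusted p = 0.0202), but not without compound 1 replicate 3 (adjusted p = 0.167) or SCH772984 replicate 2 (adjusted p = 0.1).

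Genes that act with histone genes were counted for context, from 3 lists written by hand. The DNA synthesis genes, whose expression accompanies replication, were all lower with SCH772984, 14 of 14, with a median log2 fold change of -1.92, where 35.5% of all genes were lower. RRM2, the small subunit of ribonucleotide reductase, fell by 2.66 ± 0.07 and MCM7, a helicase subunit, by 2.43 ± 0.06. In the same libraries 23 of 30 tested HIST genes were higher, and 16 of 21 among those that passed the filter without SCH772984. HIST2H2AC and HIST1H1B were lower, the latter on few counts and not called without DMSO replicate 1. The share of cells in S phase was not measured. With compound 1, 1 of the 14 was called lower, MCM2, where 0.374% of all genes were. At an unadjusted p under 0.05, 7 were lower and 0 higher (7.69% of all genes were lower), and the median was -0.15.

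Of 20 tested genes for transcription and 3′ processing of histone mRNA, 18 were lower with SCH772984 and 2 were higher (median -0.84), against 35.5% and 37.2% of all genes. CCNE2, a cyclin that drives the phosphorylation of NPAT, fell by 1.72 ± 0.20 and CDK2, its kinase partner, by 1.504 ± 0.10. SLBP fell by 0.91 ± 0.07, from 110 to 57.9 CPM in the group means, and NPAT, the coactivator of clustered histone genes, by 0.83 ± 0.11. HINFP, an H4 promoter factor, rose by 0.31 ± 0.13 and MIF4GD, a partner of SLBP in translation, by 0.30 ± 0.12. With compound 1 none of the 20 was called in edgeR, and 3 were lower and 0 higher at an unadjusted p under 0.05, against 7.69% and 7.35% of all genes.

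Of 27 histone chaperones and deposition factors, 20 were lower and 5 were higher with SCH772984 (median -0.72), against the same 35.5% and 37.2%. HJURP, the chaperone of the centromeric histone, fell by 2.36 ± 0.07 and MCM2, a helicase subunit that also binds H3-H4, by 1.72 ± 0.07. Among the replication-coupled chaperones, CHAF1A fell by 1.60 ± 0.08 and ASF1B by 1.51 ± 0.08. ATRX, which works with DAXX in the deposition of H3.3, rose by 0.63 ± 0.07 and UBN2, which works with HIRA, by 0.59 ± 0.10. DAXX itself fell by 0.55 ± 0.07, HIRA by 1.05 ± 0.145 and UBN1 of the HIRA complex by 0.49 ± 0.07, while CABIN1 of the same complex rose by 0.26 ± 0.07. ANP32E, which removes H2A.Z, fell by 1.38 ± 0.07, as H2AFZ itself did. With compound 1, 1 of the 27 was called lower, where 0.374% of all genes were. This was MCM2, the same gene as in the DNA synthesis list. At an unadjusted p under 0.05, 6 were lower and 0 higher, against 7.69% and 7.35% of all genes.

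**Figure D5:**
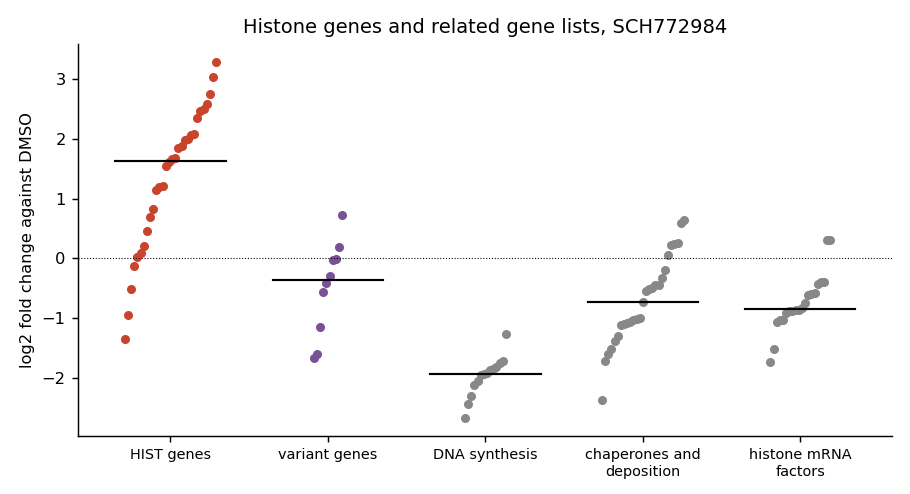
Log2 fold change with SCH772984 against DMSO of the tested HIST genes (30), variant genes (10), DNA synthesis genes (14), histone chaperones and deposition factors (27) and histone mRNA factors (20), each point a gene and each line a median. The medians were 1.63, -0.36, -1.92, -0.72 and -0.84, and MCM2 is in both the DNA synthesis and the chaperone list.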

How the data were processed

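RNA from 9 MIA PaCa-2 samples (DMSO, compound 1 and SCH772984, 3 each) was sequenced by Novogene. The authors deposited read counts per gene without normalization. The submitters' processing notes name HISAT2 2.0.5, featureCounts 1.5.0-p3 and hg38. All 87 histone genes matched GENCODE release 29.

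Each pair of groups was fitted separately with edgeR 4.0.16 (quasi-likelihood, robust, TMM, filterByExpr with minimum count 10 and total 15) in R 4.3.3, over all genes, with Benjamini-Hochberg adjustment and a threshold of 0.05. The steps were tested on simulated data. Sums, ratios and lists were described without a test. DESeq2 1.42.0, other scalings and filters, a gene length correction and leaving out each library were alternatives. Same-numbered libraries gave no sign of pairing, and replicate number was left out of the main fits.

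Named by rule were all variant genes, the 3 highest HIST genes per family with DMSO, the 5 largest called HIST rises and falls per comparison with a mean of at least 1 CPM, the 6 genes of the polyadenylated list, and the 2 largest called changes per direction in each related list. Every other gene given with values was chosen after its values were seen. The genes and lists were chosen with earlier results of these data known.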

Additional observations from a re-analysis of the deposited data

Results flagged for a closer look

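Genes with HIST names that are not protein coding lay outside the comparisons. In 3 of the 19, every SCH772984 library had more than 3 counts and lay above every DMSO library. The pseudogene HIST2H2BC was at a mean of 16.2 CPM with SCH772984 and 12.6 CPM with DMSO, but 1 compound 1 library, at 16.4 CPM, lay above every SCH772984 library. HIST2H2BD was at 5.27 CPM with SCH772984 and 3.54 CPM with DMSO, and HIST1H1PS1 at 0.503 CPM with SCH772984 and at 0 counts in the DMSO libraries. These differences were not tested. Reads of such pseudogenes may belong to their protein-coding relatives, which was not tested. No test for an outlying sample was run within the groups of 3 libraries.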

How the results depend on the processing

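Against DMSO, 23 HIST genes were higher and 2 lower with SCH772984. Requiring 10 counts in every library, which tests fewer genes, gave 14 and 1, no filter gave 4 lower (HIST1H2AL and HIST1H3I in addition), and an added 2-fold limit gave 1 lower. For variant genes, 2 higher and 6 lower became 0 and 3 with the 2-fold limit, and 1 was higher without a filter or with the length trend removed. Leaving out a library gave 20 to 22 HIST genes higher and 1 to 3 lower, and 1 to 2 variant genes higher and 6 lower. Against compound 1, requiring 10 counts gave 14 HIST genes higher and 1 lower, the 2-fold limit gave 1 HIST gene lower and 0 higher and 3 lower variant genes, and leaving out a library gave 21 to 22 and 2 to 3 HIST genes and 0 to 1 and 5 to 6 variant genes. For compound 1 against DMSO, where 0 were called, the unadjusted p gave 2 HIST genes lower and 1 variant gene in each direction. No filter, the replicate block and DESeq2 each gave 1 variant gene higher, and removal of the length trend 1 in each direction. Leaving out a library gave 0 HIST genes higher and 0 to 1 lower, and 0 to 1 variant genes higher and 0 to 2 lower.

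The HIST to variant ratio differed by 2.05 between SCH772984 and DMSO, by 1.78 with counts divided by length, by 1.90 with the median gene, by 1.87 without the largest gene of each class and by 2.01 to 2.07 without single libraries. For compound 1 it differed by -0.08, and by -0.12 to -0.04 without single libraries.

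Of 632 log2 fold changes of named genes under alternatives, 592 kept direction and call, 20 lost the call, 7 gained one and 13 changed sign, all of them for genes not called against DMSO in the report. Of the 13, H3F3A with library size alone was itself called (adjusted p = 0.0164). Against DMSO these were HIST1H4J with no filter (-0.0227), the replicate block (-0.0181), DESeq2 (-0.00176), the length trend removed (-0.148) and 3 of the 6 libraries left out singly (all 6 gave -0.297 to 0.197), and H1F0 and H3F3A with library size alone (0.160 and 0.156), with 10 counts in every library (0.0654 and 0.0606) and without SCH772984 replicate 2 (0.0268 and 0.00715), while single libraries left out gave -0.0950 to 0.0268 and -0.0580 to 0.00715 in all. The causes were not tested.

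Correlations of same-numbered libraries' deviations were -0.08 to 0.11, which gave no sign of pairing but cannot exclude it with 3 libraries per group. For compound 1 against DMSO, the replicate block called 193 genes higher and 219 lower over all genes, where 63 and 48 were called without it. With the replicate block 23 HIST genes were higher and 2 lower against DMSO, and 21 and 2 against compound 1. Library size alone raised the median of all genes by 0.17 with SCH772984 and moved the higher share of calls from 51.2% to 61.5%, and with compound 1 from 56.8% to 77.3%. Removing the length trend moved it to 42.7% with SCH772984 and 40.6% with compound 1.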

Other observations

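CENPA, the centromeric H3 that lies outside the naming rule, had 509, 559 and 567 counts with DMSO, 574, 529 and 518 with compound 1 and 160, 164 and 271 with SCH772984. H2BFWT and H2BFM were at 0 in every library. HIST2H4A had 0 counts in all DMSO and compound 1 libraries and 12, 2 and 1 with SCH772984, while its copy HIST2H4B had 1 to 5 counts without SCH772984 and 3 to 6 with it. HIST1H2BG had 6, 4 and 2 counts with DMSO, 0 in each compound 1 library and 5, 5 and 8 with SCH772984, values too low to be tested.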
